A study of Mus musculus with 4 samples.

Results

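The B cells described here were 370 of the 4836 cell barcodes of a single-cell RNA-seq library from a premalignant mouse mammary gland, in a series of 10781 barcodes over 4 libraries. All libraries came from female Trp53L/L;Brca1L/L;R26Y mice of mixed genetic background, in which Ad-K8-Cre, an adenovirus with Cre under a keratin 8 promoter, was given by intraductal injection to delete Trp53 and Brca1 and switch on a YFP reporter. The 5 months library, named for the time since injection, combined sorted YFP+ epithelial cells with sorted CD45+ leukocytes. The 2 weeks library held YFP+ cells, and 2 further libraries were made from suspensions of 1 mammary tumour each (tumour 1 and tumour 2). The keratin 8 promoter is active in luminal epithelial cells, and recombination in leukocytes was not analysed here. The labels do not give the number of mice per library or the ratio of the sorted populations, and a gland without Cre was not analysed here. Each value below from the 5 months library therefore rests on 1 library, no p-value is given, and every interval is a 95% interval that covers counting error only.

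Members were chosen by their own RNA. A barcode had to show 500 or more genes with no more than 10% of its UMIs mitochondrial, which 4672 barcodes did, and then at least 3 UMIs of Cd79a, Cd79b and Ms4a1 together, which left 799. Requiring no Epcam UMI left 719, no UMI of Cd3d, Cd3e or Cd3g left 470, at most 1 Lyz2 UMI left 453, at most 3 UMIs of Mzb1 and Xbp1 together left 374, and at most 5 Jchain UMIs left 370. B cells were 7.92% of the barcodes of good quality (exact binomial interval 7.16 to 8.73). They were set beside the 2037 T cells of the same library, which had at least 2 UMIs of Cd3d, Cd3e and Cd3g together. That T cell rule does not bar RNA of other lineages: 178 of the 2037 also had at least 3 B cell marker UMIs, 127 had an Epcam UMI, 90 had more than 1 Lyz2 UMI and 30 had more than 5 Jchain UMIs. Values are therefore also given for 1586 strict T cells, which had no Epcam, Cd79a, Cd79b or Ms4a1 UMI and at most 1 Lyz2 UMI. The classes that give context were 92 plasma cells (at least 6 Jchain UMIs and at least 4 of Mzb1 and Xbp1) and 277 Lyz2-high cells (at least 5 Lyz2 UMIs), both without Cd3 UMIs. Lyz2-high cells also had no Epcam, Cd79a, Cd79b or Ms4a1 UMI by their definition, so low levels of B cell genes in them are partly set by that choice.

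The B cells held 771764 UMIs, with a median of 1708.5 UMIs (range 1363 to 11311) and 750.5 genes per cell. T cells held 5951155 UMIs with a median of 2057, and strict T cells 3807825 UMIs with a median of 1872.5. Levels are given as CPM, the UMIs of a gene summed over a class and scaled to a common class total that leaves out immunoglobulin rows, so 1 UMI was worth 1.31 CPM in B cells and 0.263 CPM in strict T cells. A gene was called different where the ratio of the levels, each raised by 1 CPM, reached 2-fold and the higher level reached 20 CPM. The libraries shared between 2 and 16 barcodes per pair, 16 of them between the 5 months and tumour 1 libraries.

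B cells are lymphocytes that recognise antigen through a surface immunoglobulin, built from heavy and light chains and coupled to the signalling chains Cd79a and Cd79b. Resting naive B cells make IgM and IgD together from one transcript by alternative splicing; after activation a cell can switch to IgG, IgA or IgE, enter a germinal centre, become a memory cell or turn into an antibody-secreting plasma cell. B cells also take up antigen and show its peptides on MHC class II molecules to CD4 T cells. In the mammary gland, B lineage cells are best known for the plasma cells that supply milk antibody during lactation.

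The label was checked against B cell markers that the rule did not use. Among 11 other markers (Pax5, Cd22, Cd37, Blk, Fcer2a, Cr2, Spib, Pou2af1, Bank1, Ly6d and Ebf1), all 370 B cells had a UMI of 1 or more markers, and the median cell had UMIs of 3. UMIs of 3 or more of these markers were present in 74.9% of B cells (70.1 to 79.2), in 7.90% of T cells (6.77 to 9.16) and in 0.378% of strict T cells (0.139 to 0.822), which had no Cd79a, Cd79b or Ms4a1 UMI by their definition. Ebf1, the transcription factor that sets up the B lineage, reached 1458 CPM (1374 to 1546) in B cells, against 114 CPM in T cells and 11.3 CPM in strict T cells. After thinning each cell to 1000 UMIs, 70.5% of B cells (65.6 to 75.1) and 0.883% of strict T cells had an Ebf1 UMI; without thinning the shares were 90.5% of B cells and 1.39% of strict T cells. Markers outside the rule thus went with the label.

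The genes of the rule are given only as a description. Cd79a stood at 1788 CPM, Ms4a1 (the CD20 antigen) at 770 CPM and Cd79b at 721 CPM in B cells. The threshold of 3 marker UMIs cut through cells with like profiles: an Ebf1 UMI was found in 57 of the 60 members just inside, with 3 marker UMIs, and in 52 of the 55 barcodes just outside, with 2. It was found in 35 of the 53 barcodes with 1 marker UMI and in 30 of the 473 with none. A further 77 barcodes met every condition except for 1 Cd3 UMI, and 138 had at least 2 Cd3 UMIs, with a median of 2861 UMIs per barcode.

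**Figure D1:**
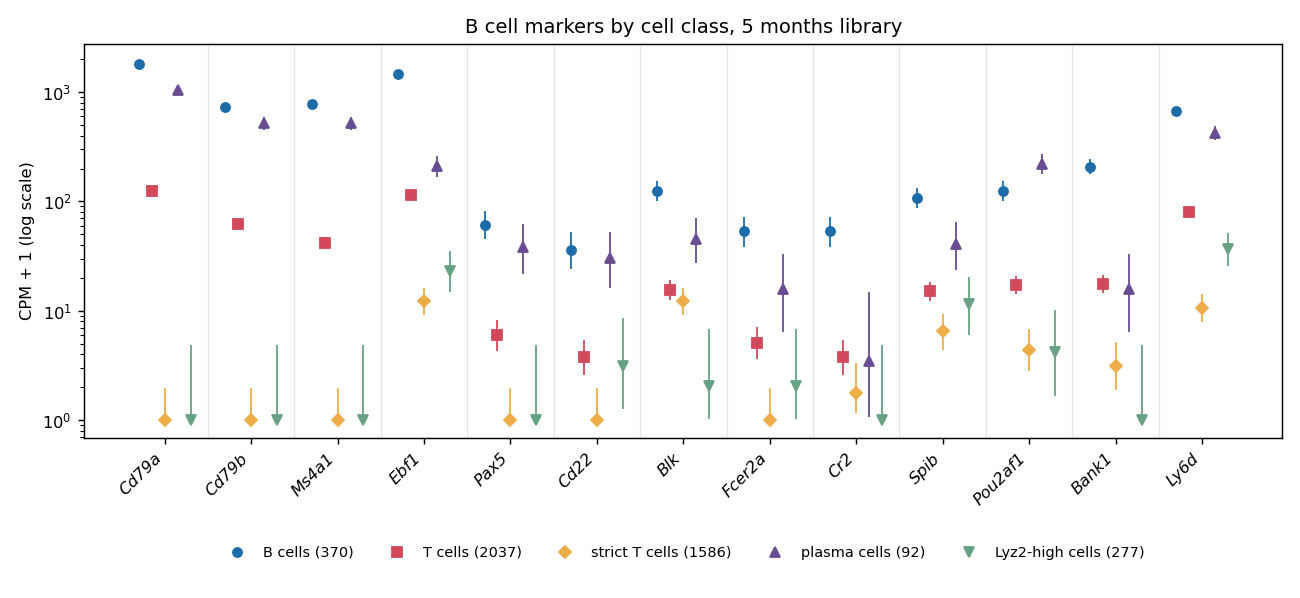
Levels of 13 B cell markers (CPM + 1, log scale) in the cell classes of the 5 months library; vertical lines are 95% Poisson intervals of the summed UMIs. B cells (blue circles) lie above T cells, strict T cells and Lyz2-high cells for all 13 genes, the first 3 of which were used to choose them, while plasma cells are higher for Pou2af1. Strict T cells and Lyz2-high cells have no UMI of those first 3 genes by their definition.

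Immunoglobulin rows, listed for the 5 months library alone, showed B cells with unswitched heavy chains. Ighm, the constant region of IgM, had a UMI in 69.7% of B cells (64.8 to 74.4), 21.2% of T cells and 14.6% of strict T cells. Ighd, the constant region of IgD, had a UMI in 47.0% of B cells (41.8 to 52.3), 4.86% of T cells and 0.441% of strict T cells. Thinned to 1000 UMIs, the shares were 57.3% of B cells and 7.50% of strict T cells for Ighm, and 30.0% of B cells and 0.252% of strict T cells for Ighd. Without thinning, both were found in 140 of the 370 B cells, Ighm alone in 118, Ighd alone in 34 and neither in 78. T cells are not known to make immunoglobulin, so the share in strict T cells was read as the background. Free RNA and droplets with more than 1 cell were not told apart in it, and single strict T cells had up to 147 Igkc and 129 Ighg2b UMIs. Other classes gave other levels. Ighm had a UMI in 27.8% of Lyz2-high cells, and Igha in 20.9%. In 368 cells with at least 3 Epcam UMIs and no Cd3 or B cell marker UMI, the shares were 5.43% for Ighm and 31.25% for Igha.

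For the switched classes, B cells lay near the level of strict T cells. Igha, the constant region of IgA, had a UMI in 20.3% of B cells (16.3 to 24.7) and in 20.2% of strict T cells (18.3 to 22.3). Ighg2b had a UMI in 8.92% of B cells and 9.39% of strict T cells, Ighg1 in 8.11% of B cells and 6.87% of strict T cells, Ighg2c in 4.32% of B cells and 5.17% of strict T cells, and Ighg3 in 2.70% of B cells and 1.70% of strict T cells. Of the 172 Igha UMIs of the B cells, 88 came from 1 cell. Ighe, the constant region of IgE, had 1 UMI over all B cells.

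A leading heavy chain was called where 1 constant gene had the most UMIs and at least 3. This was possible for 119 of the 370 B cells: Ighm led in 105, Ighd in 8 and a switched class in 6 (Ighg1 2, Igha 2, Ighg2b 1 and Ighg2c 1), while 2 cells were tied and 249 had too few UMIs. IgM or IgD thus made up 113 of the 119 calls (interval of the share 89.3% to 98.1%). Most calls in the background were also IgM or IgD, 26 of 37 in strict T cells (53.0% to 84.1%) and 93 of 135 in T cells (60.4% to 76.6%). The 6 switched cells were 1.62% of all B cells (0.597 to 3.50). Such a call was made in 0.694% of strict T cells (0.347 to 1.24) and in 2.06% of T cells (1.49 to 2.78). A gene comparison of switched with unswitched B cells was not made, because it would rest on 6 cells.

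The light chain was almost always kappa. Igkc, the kappa constant region, had a median of 10 UMIs per B cell (10th to 90th percentile 4 to 25.1), against a median of 1 in T cells, in strict T cells and in Lyz2-high cells. It reached 3 UMIs in 94.3% of B cells and 12.7% of strict T cells. Kappa was the leading light chain with at least 3 UMIs in 348 B cells and lambda in 3, while 19 had too few UMIs; kappa made up 99.1% of the calls (97.5 to 99.8). Strict T cells also gave 201 kappa calls and 2 lambda calls, so the kappa share among callable cells is no measure of B cells alone; the number of callable cells is where they differ. The 3 lambda cells had a median of 11 lambda and 2 kappa UMIs.

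Low counts of lambda were common beside kappa. Iglc2, a lambda constant gene, had a UMI in 25.9% of B cells and 1.26% of strict T cells. Over all B cells, lambda UMIs numbered 294 beside 4811 kappa UMIs, 5.76% of the light chain UMIs, against 2.02% in strict T cells and 0.936% in plasma cells. The 92 plasma cells had Iglc2 UMIs in 94.6% of cells at a median of 14.5, beside a median of 3218.5 Igkc UMIs. Variable gene rows were nearly empty: B cells had 2 UMIs over 185 heavy, 14 over 160 kappa and 1 over 3 lambda variable rows, so variable gene usage could not be read at this depth.

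**Figure D2:**
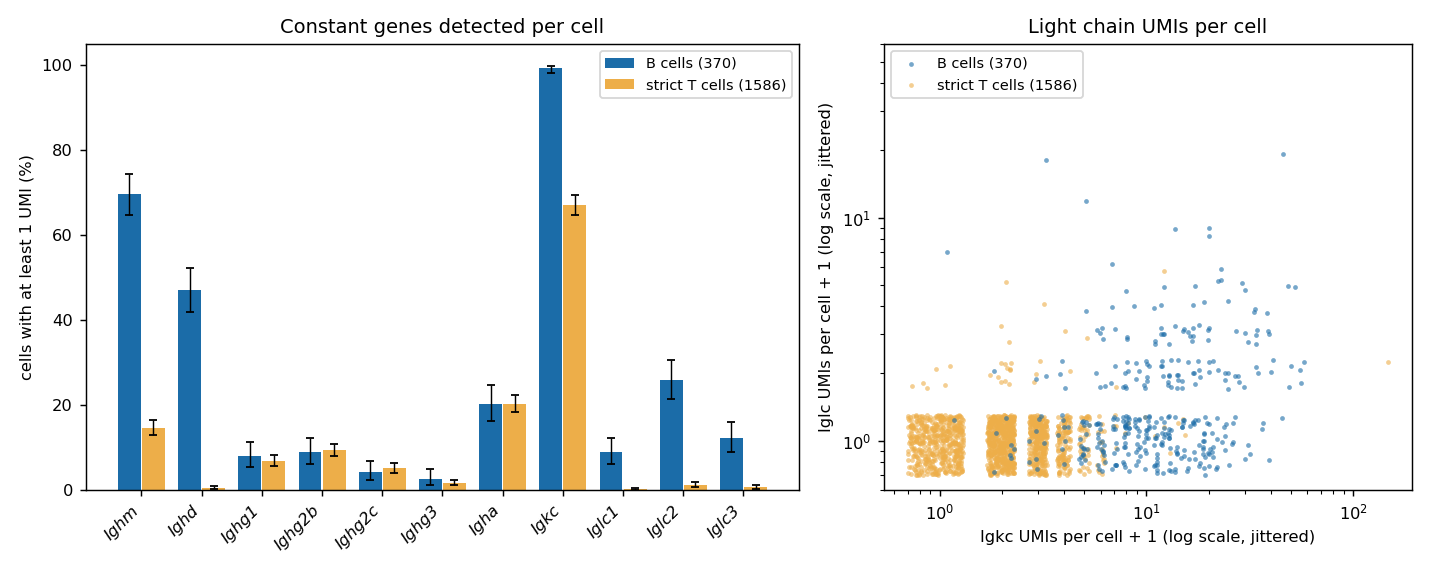
Left, share of cells with at least 1 UMI of each immunoglobulin constant gene in 370 B cells (blue) and 1586 strict T cells (orange), with exact 95% binomial intervals; Ighm, Ighd, Igkc and the lambda genes stand above the strict T cells, while for Igha and the Ighg genes the intervals of both classes overlap. Right, kappa against lambda UMIs of each cell plus 1 on log axes, with jitter; most B cells lie between 3 and 57 kappa UMIs.

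Across the transcriptome, 909 of 5158 genes with at least 20 CPM in either class passed the 2-fold rule between B cells and T cells, 17.6% of those tested. B cells were higher for 374 genes (7.25%) and lower for 535 (10.4%), and the median log2 ratio over all tested genes was 0.03. Against strict T cells, 484 of 5108 genes were higher (9.48%) and 481 were lower (9.42%). The counts of list members below are to be read against these shares. The lists follow textbook roles of B cells and were chosen with results of these data known, so their counts are descriptions.

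Genes of antigen receptor signalling were mostly higher in B cells. Of the 26 listed genes, 22 had 1 row and at least 20 CPM in either class; 19 of these were higher in B cells than in T cells, 0 were lower, and the median log2 ratio was 2.78 (4.04 against strict T cells, where 21 were higher). Bank1, a scaffold of the receptor pathway, stood at 206 CPM in B cells, 16.7 in T cells and 2.10 in strict T cells. Strict T cells had no Cd79a, Cd79b or Ms4a1 UMI by their definition, so low levels of B cell genes in them are partly set by that choice.

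The kinases and adaptors downstream of the receptor followed the same order. Lyn, which starts the signal, reached 290 CPM (253 to 331) in B cells, 38.2 in T cells and 17.6 in strict T cells. Syk reached 84.9 CPM in B cells and 14.8 in T cells, Btk 60.1 in B cells and 3.78 in T cells, and the adaptor Blnk 178 in B cells and 29.4 in T cells. Inhibitory members were on the same side: Cd72 stood at 155 CPM in B cells and 12.2 in T cells, Siglecg at 94.1 in B cells and 10.8 in T cells, and Cd22 at 35.3 in B cells and 2.75 in T cells, with no Cd22 UMI in strict T cells. Fcgr2b, the inhibitory receptor for IgG, stood at 70.6 CPM in B cells and 10.3 in T cells, and was higher in Lyz2-high cells at 97.1 CPM. The 3 tested members that did not pass were Vav1 (35.3 CPM in B cells, 21.5 in T cells), Ralgps2 (51.0 in B cells and 27.0 in T cells) and Cd81 (256 in B cells and 128 in T cells). Cd37, a tetraspanin listed on 2 rows and so left out of the counts, summed to 468 CPM in B cells and 145 CPM in T cells.

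Several of the largest ratios outside the rule belonged to this group and its neighbours. Fcmr, the receptor for IgM, stood at 265 CPM (230 to 304) in B cells and 17.0 in T cells, a ratio of 15.6. Cr2, the complement receptor CD21, stood at 52.3 CPM in B cells and 2.75 in T cells, a ratio of 19.0 (10.4 to 36.3). Fcrl1 reached 105 CPM in B cells and 6.53 in T cells, Fcrla 226 in B cells and 16.3 in T cells, Dok3 75.8 in B cells and 6.02 in T cells, and Bcar3 105 in B cells and 5.85 in T cells. Among genes outside the rule with at least 50 CPM, the largest ratio was that of Mgp (a matrix protein), with 88.9 CPM in B cells and 4.13 in T cells; 1 cell held 67 of its 68 UMIs. Scd1, a fatty acid desaturase outside the lists that was singled out after its values were seen, stood at 382 CPM (339 to 428) in B cells, 46.1 in T cells and 6.05 in strict T cells, with a UMI in 188 B cells.

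Of 22 listed transcription factors, 21 were tested; 15 were higher in B cells, 0 were lower, and the median log2 ratio was 1.88. Besides Ebf1, Pax5, which maintains B cell identity, stood at 60.1 CPM (44.0 to 80.2) in B cells and 4.99 in T cells; no strict T cell had a UMI, and against a floor of 3 UMIs over that class the level was at least 76.2-fold higher. Mef2c reached 538 CPM in B cells, 52.1 in T cells and 8.41 in strict T cells. Spib, Pou2af1 and Bcl11a stood at 107, 124 and 74.5 CPM in B cells and at 14.1, 16.3 and 7.91 CPM in T cells. Pou2af1 was higher in plasma cells, at 219 CPM. Factors that T cells share did not pass: Foxo1 had 102 CPM in B cells and 117 in T cells, Ets1 299 in B cells and 354 in T cells, Ikzf3 49.7 in B cells and 55.5 in T cells, Klf2 146 in B cells and 218 in T cells, and Bach2 57.5 in B cells and 31.5 in T cells.

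MHC class II genes were among the most abundant transcripts of the B cells. The invariant chain Cd74, which escorts new class II molecules, reached 22910 CPM (22572 to 23252) in B cells, 4158 in T cells, 1141 in strict T cells and 35208 in Lyz2-high cells. H2-Aa and H2-Ab1, the chains of the I-A molecule, reached 7524 and 7291 CPM in B cells and 1529 and 1471 CPM in T cells. Of 13 listed genes, 11 were tested; 10 were higher in B cells, 0 were lower, and the median log2 ratio was 2.31 (3.78 against strict T cells, where all 11 were higher). Ctss, the protease that trims the invariant chain, was the 1 that did not pass, with 336 CPM in B cells and 205 in T cells. Ciita, the class II transactivator, was under the minimum with 6 UMIs in B cells.

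The set was present in nearly every B cell. All 370 had Cd74 and H2-Aa UMIs, and 369 had H2-Ab1. After thinning to 1000 UMIs, Cd74 took a median of 24 UMIs per B cell, with the 10th and 90th percentiles at 13 and 36, and the lowest cell had 2. The strict T cells had a median of 0 and a 90th percentile of 1. At least 3 of the 13 genes had a UMI in 99.7% of B cells (98.5 to 100) and in 7.94% of strict T cells (6.66 to 9.39).

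B cells and Lyz2-high cells differed in which class II genes they held. H2-DMb2, a chain of the peptide exchange factor DM, stood at 604 CPM (550 to 661) in B cells, 64.8 in T cells and 127 in Lyz2-high cells. H2-DMb1, its near relative, stood at 170 CPM (142 to 202) in B cells, 70.7 in T cells and 618 in Lyz2-high cells. H2-Oa and H2-Ob, the chains of DO, which holds DM back, stood at 205 and 69.3 CPM in B cells, 31.6 and 10.1 in T cells, and 59.1 and 20.1 in Lyz2-high cells. H2-Aa, H2-Ab1, H2-Eb1, H2-DMa and H2-DMb1 were thus lower in B cells than in Lyz2-high cells, and H2-DMb2, H2-Oa and H2-Ob were higher. The 2 DM beta genes are closely related in sequence, and reads that both match could have been split or dropped by the counting.

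Promoters of 3 of these genes are shown because they share a short motif of class II promoters, the Y box, bound by the factor NF-Y. The sequences are RefSeq's, GRCm38.p6, from 250 bases before to 50 after the annotated start, read 5′ to 3′ on the gene's strand, with the motif in capitals.
H2-DMb2 promoter, GRCm38.p6, chr17:34144999-34145298, plus strand: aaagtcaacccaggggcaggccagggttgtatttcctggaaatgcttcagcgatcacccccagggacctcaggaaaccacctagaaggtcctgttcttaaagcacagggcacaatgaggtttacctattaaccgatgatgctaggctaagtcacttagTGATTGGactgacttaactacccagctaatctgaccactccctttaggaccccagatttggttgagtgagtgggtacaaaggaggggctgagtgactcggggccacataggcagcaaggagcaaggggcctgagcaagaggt
H2-Aa promoter, GRCm38.p6, chr17:34287774-34288073, minus strand: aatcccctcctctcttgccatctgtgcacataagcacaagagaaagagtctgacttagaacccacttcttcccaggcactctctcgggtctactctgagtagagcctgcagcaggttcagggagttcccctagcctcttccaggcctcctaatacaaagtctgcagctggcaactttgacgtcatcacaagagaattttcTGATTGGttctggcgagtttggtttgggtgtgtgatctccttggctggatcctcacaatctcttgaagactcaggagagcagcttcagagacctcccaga
H2-Oa promoter, GRCm38.p6, chr17:34092129-34092428, plus strand: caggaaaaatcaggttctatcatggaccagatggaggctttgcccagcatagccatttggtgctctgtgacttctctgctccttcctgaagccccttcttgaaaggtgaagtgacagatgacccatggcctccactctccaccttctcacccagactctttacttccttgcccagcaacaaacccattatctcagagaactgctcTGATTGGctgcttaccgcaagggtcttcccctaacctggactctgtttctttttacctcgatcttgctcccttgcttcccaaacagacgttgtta
The motif CCAATCA or its reverse complement TGATTGG, searched on both strands, occurred in 7 of the 8 listed H2 genes with a promoter entry (H2-Aa, H2-Eb1, H2-Eb2, H2-DMb1, H2-DMb2, H2-Oa and H2-Ob, not H2-DMa). In all 7 it read TGATTGG, beginning between 45 and 102 bases before the start. Of the 10 class II list genes with an entry 7 held it, since Ifi30 and Ctss also lacked it. Over all 32851 promoters of the same length, 7.82% held it, as did at least 1 promoter of 2431 of the 27025 genes. A match is a description of these letters and no evidence of binding.

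**Figure D3:**
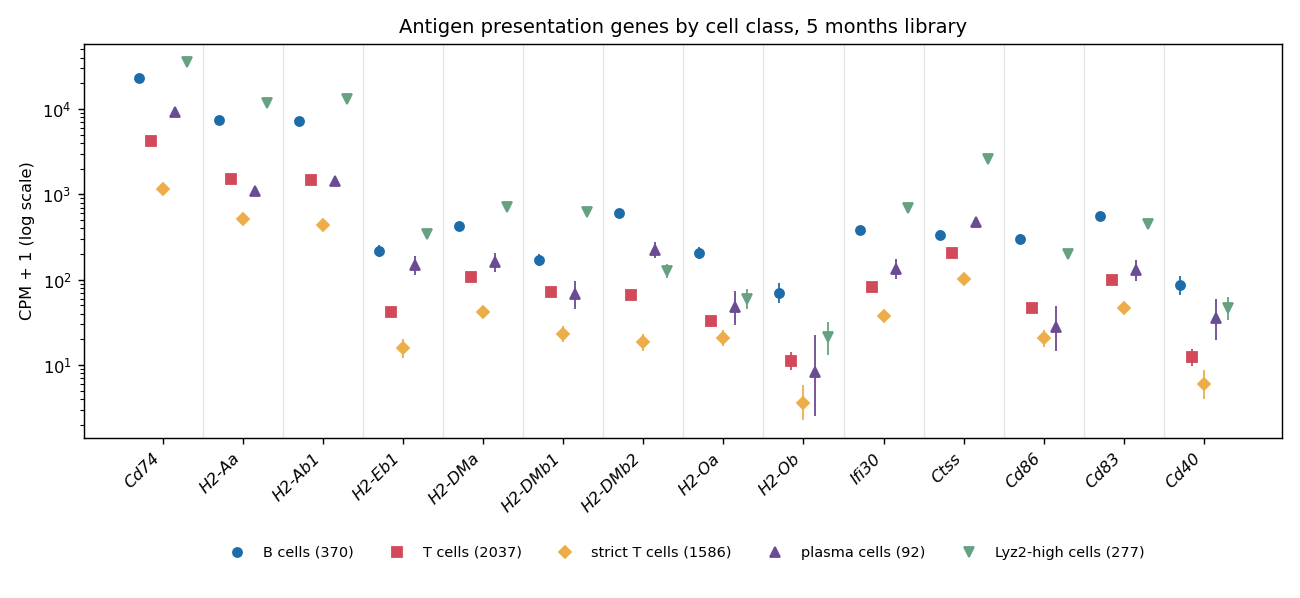
Levels of 11 MHC class II genes and 3 costimulatory genes (CPM + 1, log scale) by cell class of the 5 months library, with 95% Poisson intervals. B cells (blue) are above T cells and strict T cells for every gene, below Lyz2-high cells for Cd74, H2-Aa and H2-Ab1, and above them for H2-DMb2, H2-Oa and H2-Ob.

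Costimulatory genes were part of the same picture for 4 of the 10 tested members, while 2 were lower. Cd86, a ligand for CD28 on T cells, stood at 299 CPM (262 to 341) in B cells, 45.2 in T cells, 19.7 in strict T cells and 200 in Lyz2-high cells. Cd83, which stabilises class II at the surface, stood at 555 CPM (504 to 611) in B cells, 97.5 in T cells and 45.2 in strict T cells. Cd40, the receptor for T cell help, stood at 84.9 CPM in B cells and 11.4 in T cells. Cd80, the other CD28 ligand, had 7 UMIs in B cells and was under the minimum. Tnfrsf9 was lower at 7.84 CPM in B cells and 143 in T cells, as was Slamf1 at 7.84 in B cells and 24.1 in T cells.

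Activation genes were mixed. Of 24 tested, 5 were higher in B cells and 4 lower, with a median log2 ratio of -0.04. Rel, an NF-kB subunit induced in activated lymphocytes, stood at 655 CPM (599 to 715) in B cells, 154 in T cells and 104 in strict T cells. Myc stood at 90.2 CPM in B cells and 21.5 in T cells, Nr4a1 at 187 in B cells and 82.2 in T cells, and Cd69 at 158 in B cells and 77.6 in T cells. The immediate early gene Junb differed little, with 1606 CPM in B cells and 1531 in T cells. Lower in B cells were Fosl2 (57.5 CPM in B cells, 226 in T cells), Tnfaip3 (65.3 in B cells and 206 in T cells), Klf6 (61.4 in B cells and 175 in T cells) and Fosb (35.3 in B cells and 84.3 in T cells), of which Fosb did not pass against strict T cells, at 45.7 CPM. Without thinning, at least 3 of 8 activation markers (Cd69, Cd83, Nr4a1, Egr1, Egr3, Myc, Cd86 and Ccr7) had a UMI in 40.3% of B cells (35.2 to 45.5) and in 5.30% of strict T cells (4.25 to 6.52). After thinning, the widest gaps were those of Cd83 (39.5% of B cells, 2.02% of strict T cells) and Cd86 (27.6% and 1.58%). Egr1 went the other way (1.62% and 2.84%). Cd83 and Cd86 are also the costimulatory genes described above, so the share of 40.3% is no count of activated B cells.

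Survival and homing genes set B cells and T cells apart in a few members. Tnfrsf13c, the BAFF receptor that mature B cells need to survive, stood at 349 CPM (308 to 393) in B cells, 31.0 in T cells and 5.26 in strict T cells. It was 1 of 3 higher members among 18 tested; 3 were lower, among them Bcl2 with 26.1 CPM in B cells and 80.3 in T cells. Cxcr5, which leads B cells to follicles, stood at 88.9 CPM (69.0 to 113) in B cells and 9.29 in T cells, and Ccr6 at 53.6 in B cells and 11.5 in T cells. Ccr7, a receptor for lymph node homing, did not pass, with 703 CPM in B cells and 483 in T cells. Of 17 tested homing genes 3 were higher and 4 lower, the lowest ratio being that of Cxcr3 with 3.92 CPM in B cells and 42.8 in T cells.

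Innate sensing was represented by accessory genes. Unc93b1, which carries Toll-like receptors to endosomes, stood at 197 CPM in B cells and 37.7 in T cells, Ly86 at 162 in B cells and 23.4 in T cells, Irf5 at 133 in B cells and 30.6 in T cells, and Cd180 at 22.2 in B cells and 4.13 in T cells. Of 8 tested, 1 was lower in B cells than in T cells and these 4 were higher. All 4 also had UMIs in Lyz2-high cells, at 373, 252, 234 and 13.7 CPM. Tlr7 and Tlr9, the nucleic acid receptors best known from B cells, had 0 UMIs in the B cells, with an upper limit of 4.82 CPM. Among cytokines, Tgfb1 came close to the fold rule with 615 CPM in B cells and 312 in T cells, Ltb had 311 in B cells and 325 in T cells, Il10 had 1 UMI and Il6 had 6. Ccl22 passed, with 28.7 CPM in B cells and 10.3 in T cells, but all its 22 UMIs lay in 1 cell.

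**Figure D4:**
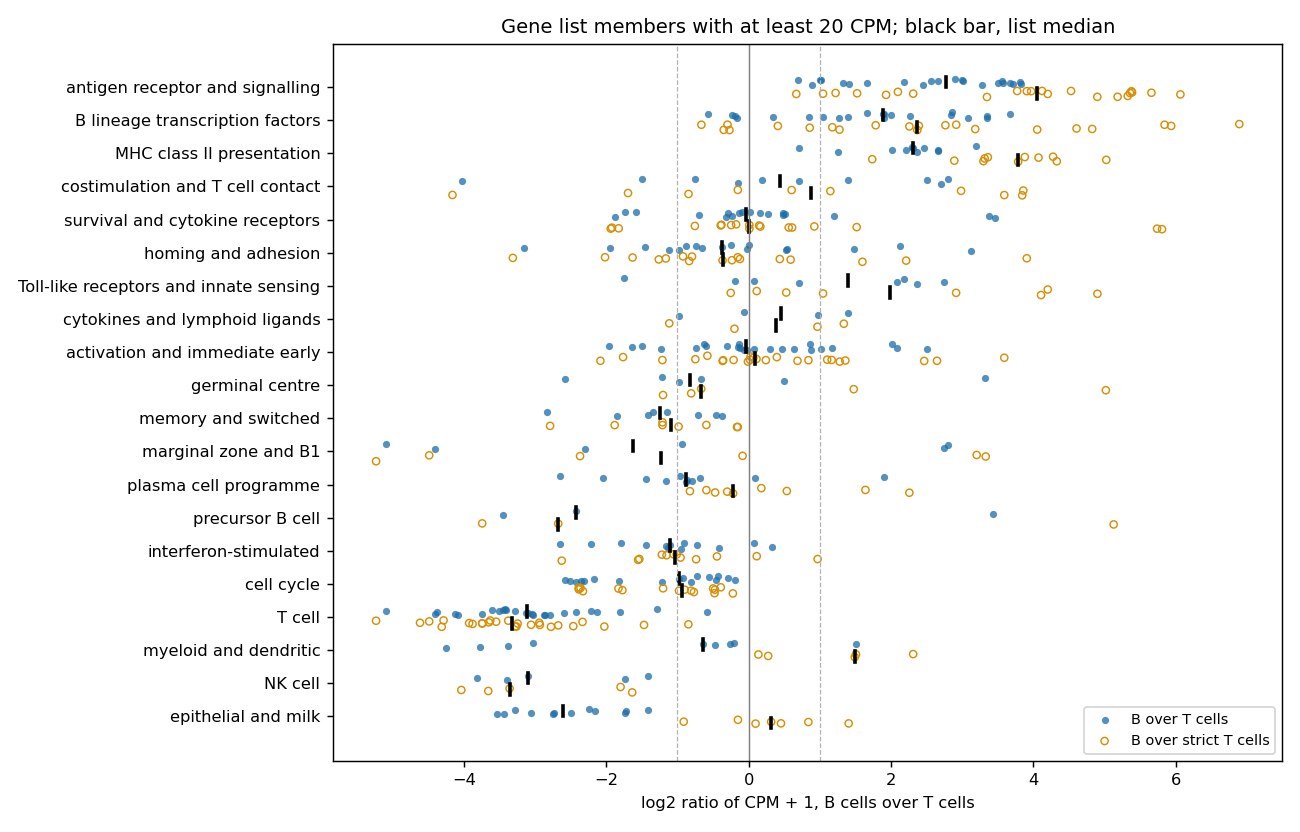
Log2 ratio of CPM + 1 of list members with at least 20 CPM, B cells over T cells (filled) and B cells over strict T cells (open); black bars are list medians and dashed lines mark 2-fold. Receptor signalling, B lineage factor and MHC class II lists lie to the right; the T cell and NK cell lists lie to the left under both comparisons, and the epithelial and milk list lies to the left of T cells alone.

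Among markers of B cell subsets, those of follicular cells were detected in more B cells than strict T cells. Without thinning, at least 2 of 5 follicular markers (Fcer2a, Ighd, Cr2, Cxcr5 and Ccr7) had a UMI in 44.1% of B cells (38.9 to 49.3) and in 1.20% of strict T cells (0.723 to 1.86). Fcer2a, the low-affinity IgE receptor of follicular B cells, stood at 52.3 CPM (37.3 to 71.2) in B cells and 4.13 in T cells and had no UMI in strict T cells. Of the marginal zone markers, Dtx1 was higher at 127 CPM in B cells and 17.4 in T cells, while Cd1d1 had 4 UMIs and S1pr3 had 2. Cr2, counted above as follicular, is also a marginal zone marker. After thinning, Cr2 had a UMI in 4.32% of B cells and 0.126% of strict T cells. Mzb1, which the rule limits, had a UMI in 18.1% of B cells and 0.631% of strict T cells. For Cd9 the shares were 4.05% of B cells and 4.98% of strict T cells. Of the B1 cell markers, Plac8 was high at 1261 CPM (1183 to 1343) in B cells, 188 in T cells and 1337 in Lyz2-high cells, while Cd5 had 1 UMI over all B cells, Bhlhe41 had 11 and Zbtb32 had 5. Plac8 had a UMI in 261 of the 370 B cells.

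Few B cells carried germinal centre genes. At least 2 of 7 markers (Bcl6, S1pr2, Rgs13, Mybl1, Fas, Mki67 and Gcsam) had a UMI in 7 of the 370 B cells, 1.89% (0.764 to 3.86), and in 0.441% of strict T cells (0.178 to 0.907). At least 3 had a UMI in 1 B cell and in 0 strict T cells; the limit of 2 was chosen after these values were seen. Rgs13 had 24 UMIs in 11 B cells. Bcl6 had 2 UMIs and Mki67 had 2. Of 17 tested cell cycle genes, 0 were higher and 8 were lower in B cells, and 10 B cells had at least 10 cell cycle UMIs.

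Memory and interferon lists had lower members and 0 higher ones, and the precursor list was mixed. Of 8 tested memory genes, 0 were higher and 5 lower, among them S100a6 with 81.0 CPM in B cells and 583 in T cells, and Vim with 252 in B cells and 640 in T cells. T cells use both genes, so the ratio does not place B cells on a memory scale. Of 13 tested interferon-stimulated genes, 0 were higher and 7 lower, for example Isg15 with 27.4 CPM in B cells and 62.8 in T cells. The precursor genes Rag1, Rag2, Dntt, Vpreb1 and Igll1 had 0 UMIs in B cells, while Vpreb3 stood at 52.3 CPM in B cells and 3.96 in T cells.

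Of 11 tested genes of the plasma cell programme, 1 was higher and 4 were lower in B cells than in T cells, while 2 of 9 were higher and 0 lower than in strict T cells; the rule itself limits Mzb1, Xbp1 and Jchain. The 16 listed genes took 0.0666% of UMIs in B cells, 0.124% in T cells, 0.0662% in strict T cells and 1.19% in plasma cells. Prdm1, the factor that drives plasma cell fate, and Derl3 and Tnfrsf17 had 0 UMIs. Irf4 was the higher member against T cells, with 65.3 CPM in B cells, 16.7 in T cells and 81.4 in plasma cells. Slpi was lower at 56.2 CPM in B cells against 358 in T cells, but higher than in strict T cells at 17.3 CPM.

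T cell and NK cell genes were lower in B cells, and some UMIs of other lineages lay in single cells. Of 26 T cell genes, 25 were lower in B cells and 0 higher; their levels in B cells ran from 1.52% to 55.2% of those in strict T cells, with a median of 9.44%. Trbc2 stood at 83.6 CPM in B cells and 956 in T cells, and Trac at 37.9 in B cells and 338 in T cells. B cells with at least 5 UMIs of a foreign list numbered 33 for T cell genes, 16 for myeloid and dendritic genes, 12 for NK genes and 1 for epithelial and milk genes, 51 cells in all; their part in the results above was not tested beyond leaving them out. Of 9 tested myeloid and dendritic genes, 1 was higher and 4 were lower than in T cells (median log2 ratio -0.64), but 3 of 5 were higher and 0 lower than in strict T cells (median 1.49). The higher ones against strict T cells were Flt3, with 16 UMIs in B cells, and S100a8 and S100a9, of whose 30 and 37 UMIs 27 and 34 lay in a single cell each. The list took 0.102% of UMIs in B cells, 0.158% in T cells, 0.0835% in strict T cells and 2.00% in Lyz2-high cells. Without the 51 cells, 0 of 8 tested members were higher and 7 were lower than in T cells (median -3.79). Those cells were picked in part by their UMIs of this same list, and the T cells were not cut in that way. The fall of the median was thus set by the choice and says nothing of the remaining cells. Csf1r and Cd68 had 1 and 4 UMIs in B cells, and Ncr1 and Klrb1c of NK cells had 0. All 12 tested epithelial and milk genes were lower than in T cells, with a median log2 ratio of -2.61. The B cell rule bars Epcam UMIs and the T cell rule does not. Against strict T cells, which also lack Epcam UMIs, the median over 7 tested genes was 0.32, with 1 higher and 0 lower. Some genes low against T cells were thus not low against strict T cells: C1qa stood at 3.92 CPM in B cells, 92.3 in T cells and 4.99 in strict T cells, Prg2 at 2.61 in B cells, 70.9 in T cells and 3.15 in strict T cells, and Retnla at 6.53 in B cells, 129 in T cells and 4.99 in strict T cells.

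Of the 15 lowest ratios to T cells, those of Cd5, Trdc, Tnfrsf4, Areg, Ctla4, Trbc1, Camk4, Icos, Zap70, Tnfrsf9 and Tnfsf8 also passed against strict T cells, while Nupr1 stood at 1.31 CPM in B cells, 58.3 in T cells and 12.4 in strict T cells, under the minimum. Icos stood at 20.9 CPM in B cells, 380 in T cells and 433 in strict T cells. Tnfrsf4, the costimulatory receptor OX40, stood at 10.5 CPM in B cells, 340 in T cells and 356 in strict T cells. Ctla4, an inhibitory receptor, stood at 5.23 CPM in B cells, 131 in T cells and 139 in strict T cells. Trdc, the constant region of the delta chain, had 1 UMI in B cells and stood at 76.4 CPM in T cells.

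Among the B cells themselves, the variance of most genes was close to their mean after thinning. In cells thinned to 1000 UMIs, the ratio of variance to mean had a median of 1.03 over 2125 genes with a UMI in at least 20 cells, and 23 genes were above 2. For genes with few UMIs per cell this ratio stays near 1 even where levels vary, so the median does not show that most genes were even among B cells. Immunoglobulin Igha led with 33.8, followed by Ccl5 with 17.8, a T and NK cell chemokine, of whose 529 UMIs 185 came from 1 cell. Cst3 (5.09), an abundant gene of dendritic cells, had 188 of 475 UMIs in 1 cell. The ratios of Malat1 (6.34), Actb (5.99), Tmsb4x (4.15) and Fth1 (3.88) were spread over many cells. Igkc had a ratio of 3.66, Cd74 3.09, H2-Ab1 2.18 and Plac8 2.17. Leaving out the 51 cells with foreign UMIs kept 13 of the 20 highest, among them Cd74, Igkc, Plac8 and Apoe, and lost Ccl5, Cst3, Csn2, Fos, Mt1, Crip1 and H2afz.

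**Figure D5:**
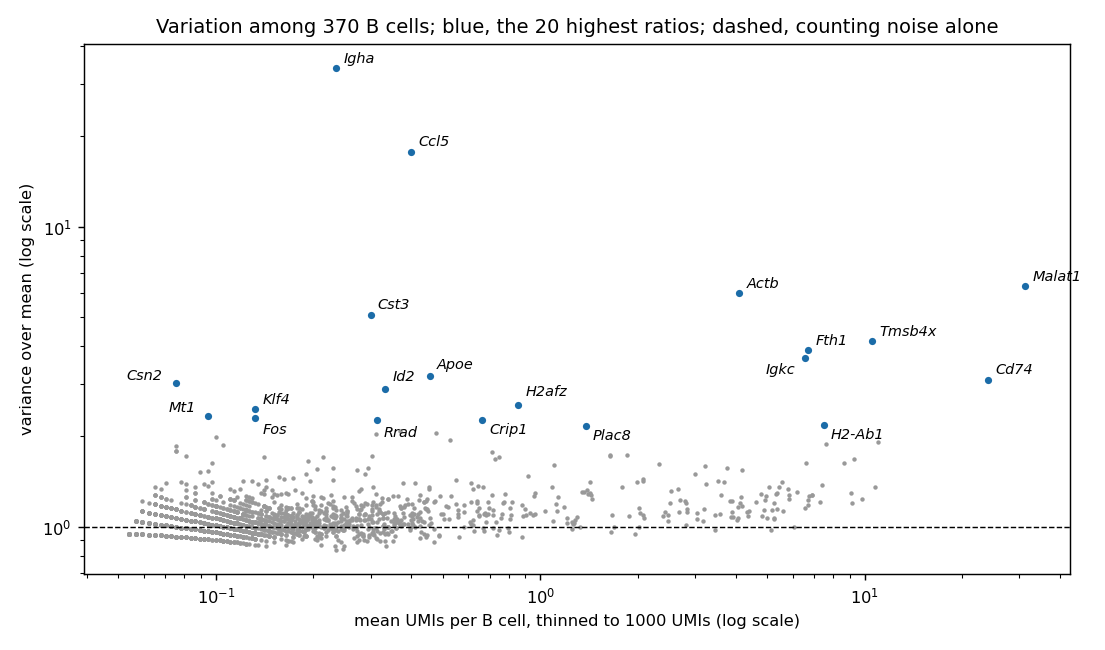
Variance over mean of UMIs against mean UMIs per B cell, both on log axes, for 2125 genes in 370 B cells thinned to 1000 UMIs; the dashed line is counting noise. Most genes lie near the line (median 1.03), and Igha and Ccl5 stand highest.

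The same rule found 16 cells in tumour 2 (0.907% of barcodes of good quality, 0.519 to 1.47). It found 0 in tumour 1 and at 2 weeks, with upper limits of 0.140% and 0.283%. In tumour 1, 9 barcodes met the conditions up to Lyz2 and all were removed by the limit on Mzb1 and Xbp1. The sorts differed: CD45+ cells were added at 5 months, and the 2 weeks library held YFP+ cells, so these shares say nothing of B cell numbers in the tissue. Over genes listed for both libraries, the 16 cells held 47582 UMIs. Ebf1 stood at 1135 CPM (853 to 1481) in tumour 2 B cells and 1458 CPM (1374 to 1546) in 5 months B cells, and Ms4a1, which the rule used, at 630 CPM in tumour 2 B cells and 770 CPM in 5 months B cells.

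Several B cell genes had lower levels in the tumour 2 cells, with no replicate to judge the difference. Cd74 stood at 14186 CPM (13136 to 15298) in tumour 2 B cells and 22914 in 5 months B cells, H2-Aa at 4603 in tumour 2 B cells and 7525 in 5 months B cells, and H2-Ab1 at 3026 in tumour 2 B cells and 7292 in 5 months B cells. Ccr7 rested on 5 UMIs in tumour 2 B cells, 105 CPM (34.1 to 245), and stood at 703 CPM (645 to 765) in 5 months B cells. Strict T cells of the same libraries had Ccr7 at 276 CPM in tumour 2 and 520 at 5 months, and Cd74 at 1145 CPM in tumour 2 and 1143 at 5 months. Other B cell genes were not lower. Bank1 stood at 231 CPM (115 to 414) in tumour 2 B cells and 206 in 5 months B cells. Pou2af1 stood at 189 CPM (86.5 to 359) in tumour 2 B cells and 124 in 5 months B cells. The median depth was 2625.5 UMIs per cell in tumour 2 B cells and 1708.5 in 5 months B cells. Library, tumour, depth and sort cannot be told apart here.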

How the data were processed

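Single-cell libraries were made with 10x Chromium Single Cell 3' v2 reagents, per the labels' protocols. The authors deposited raw UMI counts, 1 value for each gene row and barcode. The submitters' processing notes name mm10 (GRCm38) and Cell Ranger, whose version is not given in the sources used here. Rows differed: the 5 months table lists 28692 rows and the others 27998; its 392 immunoglobulin and 267 T cell receptor rows are listed for that library alone. No ambient RNA correction was made.

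Classes were cut by UMI counts, without clustering, and UMIs were summed per class. CPM was computed without immunoglobulin rows, with exact Poisson intervals; shares have exact Clopper-Pearson intervals (95%). Lower bounds of a fold against a class at 0 used a floor of 3 UMIs over that class. Log2 ratios used a pseudocount of 1 CPM. With 1 library, cells are not replicates and no test was run. Cells were thinned to 1000 UMIs, which left out no B cell, to compare shares and to compute variance over mean for genes found in at least 20 cells. Scrublet scored 4672 barcodes and its automatic threshold called 0, so no doublet was removed; leaving out the 175 highest scores was an alternative. The fold rule was tested on simulated data. Other alternatives were cell and gene minima, mitochondrial limit, TMM scaling (edgeR) and leaving out B cells with UMIs of other lineages, the last chosen after seeing the data.

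Named genes were list members with at least 20 CPM, the 15 highest and 15 lowest ratios among genes with at least 50 CPM, the 20 highest variance ratios and the immunoglobulin constant genes. Members of lists under the minimum are named only with UMI counts, and Scd1 was added after its values were seen. A few genes of these lists are not reported here, and the marker counts per cell were taken without them. Members and lists were chosen with earlier results of these data known. Promoters and the motif search used RefSeq's table for GRCm38.p6, which matched 10 of 13 class II genes. Python 3.11.15, numpy 2.4.6, pandas 2.3.3, scipy 1.17.1, matplotlib 3.10.9, scanpy 1.11.5, R 4.3.3 and edgeR 4.0.16 were used.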

Additional observations from a re-analysis of the deposited data

How the results depend on the processing

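No paired analysis was possible because the 5 months group is 1 library, only 1 of the tumour libraries held B cells, and no result comes from a test. The count of 370 B cells fell to 69 with a minimum of 1000 genes and stayed within 1.5 times (250 to 425) under the other 6 alternatives run on it. The 909 genes past the fold rule became 480 with a minimum of 50 CPM, 3516 with no minimum and 348 with a fold of 4; the 161 list members past it became 107 with a fold of 4. IgM or IgD led in 83.3% of 12 B cells when 10 UMIs were required. The share of B cells with an Ebf1 UMI, 70.5%, was 90.5% unthinned, 86.6% in the 134 cells deep enough for thinning to double the depth and 76.5% without the cells holding UMIs of other lineages; without those cells 13 of the 20 most variable genes remained. Against strict T cells the sign turned for the medians of the myeloid and dendritic list (1.49), the epithelial and milk list (0.32), the activation list (0.09) and the survival list (0.01), and for Csn2 (0.45), Retnla (0.33) and Slpi (1.64). List medians turned under other alternatives too. With no minimum, those of the germinal centre list (0.49) and the cytokine list (-0.43) turned. The cytokine median also turned with a minimum of 50 CPM (-0.06), after thinning (-0.08) and without the cells holding UMIs of other lineages (-0.04). The activation and survival medians, both -0.04 at first, turned under some alternatives as well. Ccl22 turned to -3.50 with a marker minimum of 5 UMIs and also without the cells holding UMIs of other lineages, and Mgp to -0.95 in the second case; their UMIs lay almost wholly in 1 cell. For the other changes the cause was not tested. Over 121 named genes and 11 alternatives, 1164 of 1331 values kept their place, 161 moved and 6 turned sign. Depth limits genes near 1 UMI per class, and 249 of 370 B cells had too few heavy chain UMIs for a call.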
